A study of Rattus norvegicus with 140 samples.

Results

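Aquaporins are small membrane channels that let water, and in some members glycerol or anions, cross the lipid bilayer. The 10 transcript IDs described here are those that the array's annotation assigns to a single member symbol (Aqp1, Aqp2, Aqp3, Aqp4, Aqp5, Aqp6, Aqp7, Aqp8, Aqp9 and Aqp11), out of 29214 IDs on the array. Aqp1, Aqp2, Aqp4 and Aqp5 are mainly water channels, Aqp3, Aqp7 and Aqp9 are aquaglyceroporins that also pass glycerol, Aqp6 sits in vesicles of kidney intercalated cells and passes anions, Aqp8 is a channel of hepatocytes and other epithelia, and Aqp11 belongs to a more distant branch found inside cells. In the collecting duct of the kidney, vasopressin moves Aqp2 to the apical membrane of principal cells and, over longer times, raises its transcript, while Aqp3 and Aqp4 let the water out on the basolateral side. Most other members have one main home, such as Aqp5 on the apical face of alveolar type I cells and Aqp9 on the sinusoidal face of hepatocytes.

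The data are 140 Affymetrix arrays of pieces cut from heart, liver, kidney and lung. The rats were male Fischer 344 rats aged 2 to 3 months, all carrying an implanted telemetry transmitter. Heated rats stayed conscious in a 37°C incubator until core temperature had reached 41.8°C (TcMax) and were killed then, or after 24 h or 48 h back at 22°C. Heated rats had also spent the day before in the incubator at 22°C. Of the time-matched control rats, the sample labels say that they were in the incubator for a short while at ambient temperature, and the study's methods that they never entered it, so this difference in handling cannot be told apart from heating. Each group of an organ has 6 arrays, except 5 in heated hearts at TcMax, in both liver groups at 48 h and in heated lungs at 48 h. The organs of a rat share a tag, and 32 tags were found on all 4. The labels hold 37 tags, 7 in the 48 h controls and 6 in each other group, where the study's methods give 6 rats to every group, so 1 tag may not stand for a separate rat. The values are iterPLIER intensities made for each organ apart, with array medians between 37.2 (liver) and 70.4 (lung). Differences are on the log2(intensity + 16) scale, heated minus control, with the standard error (SE) of the fit, and n is the number of arrays. An ID was called at an adjusted p under 0.05 (limma, Benjamini-Hochberg) over the 14607 IDs with the larger standard deviation (SD) in the organ. The arrays limit the precision of each difference by their number.

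Many arrays held transcripts of another tissue. Alb, the albumin gene of hepatocytes, read above 1000 on 23 of 36 kidneys, 9 of 34 hearts and 5 of 35 lungs. It reached 5877 in a kidney, against 6070 to 7610 in liver. That kidney read only 638 for Cps1, another hepatocyte gene, which averaged 5113 in control livers at TcMax. The organs were normalized apart, and the level of Alb does not give the share of liver RNA. The heart array of heated rat 4 at 48 h read 34529 for Aqp5, against 5.53 to 26.5 in the 34 other hearts and 1109 to 2178 in the 35 lungs. Its surfactant protein gene Sftpc read 8695 and its ventricular myosin gene Myl2 read 5.90, so this array was left out of every comparison. Heart array 2 of the heated 48 h group read 436 for Umod, the uromodulin gene of the kidney's thick ascending limb, and carried 88.7 of Aqp2, against 9.27 to 16.8 in the other 4 hearts of that group. Lung array 3 of the heated 24 h group read 1787 for the adipocyte gene Adipoq and 784 for Aqp7, against at most 17.5 for Aqp7 in the other 5. These arrays stayed in, and values without them, or with Alb in the fit, are given where a result rests on them.

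In control rats most members were high in 1 or 2 organs and near the floor of the array elsewhere. The organs were normalized apart, so these levels are described without a test, and each gene is set only against itself. Aqp2, the vasopressin-regulated channel, averaged 1393 ± 634 in kidney (SD, n = 18), and its highest control value outside the kidney was 60.6, in a lung. Aqp3 averaged 1369 ± 588 in kidney and 76.8 ± 76.8 in lung (SD, n = 18 each). The lung values of Aqp3 ran from 24.2 to 362, with a median of 49.6. Aqp6 averaged 1404 ± 295 in kidney and 34.3 ± 10.6 in heart (SD, n = 18 each), so the kidney was again the single organ with a high level.

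**Figure D1:**
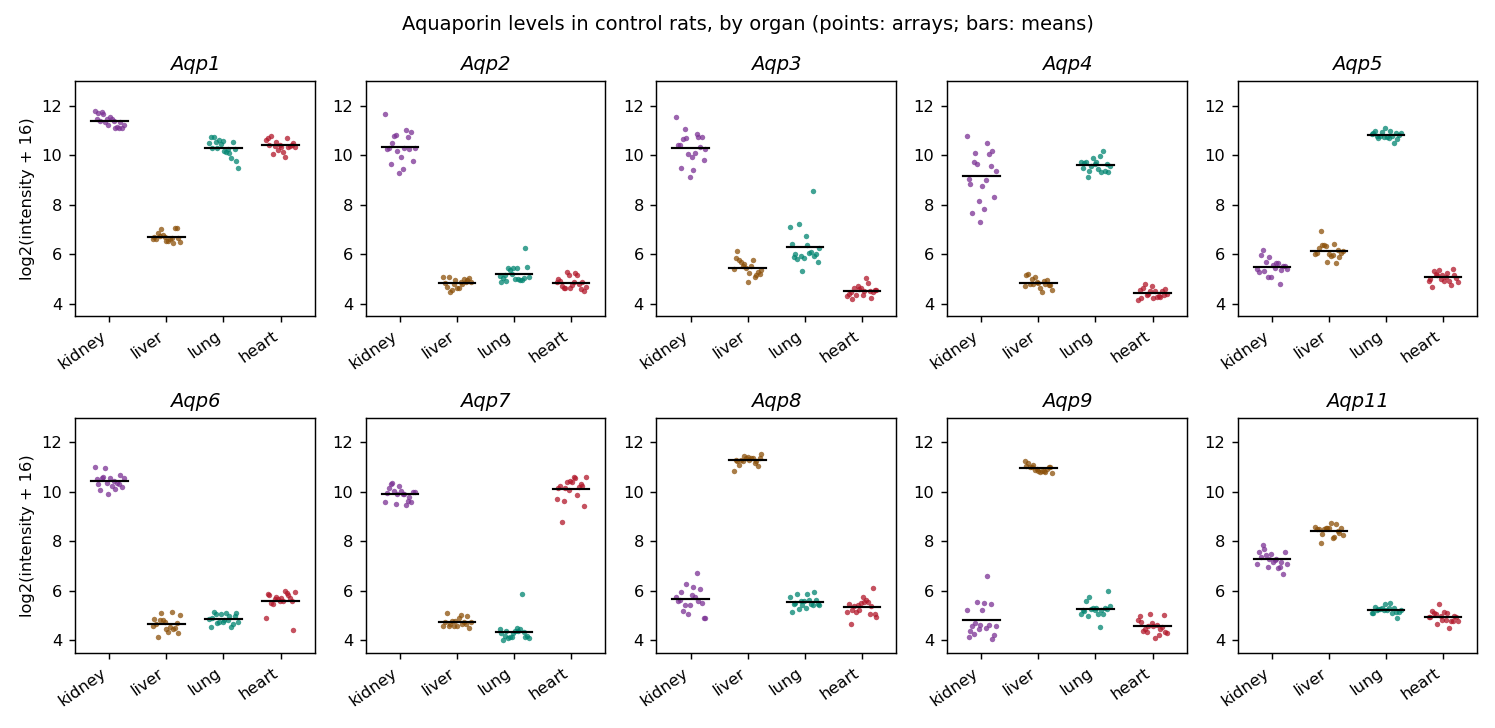
Levels of the 10 aquaporins in control rats, 1 panel per gene, with organs on the horizontal axis and log2(intensity + 16) on the vertical axis. Points are arrays (18 each in kidney, lung and heart, 17 in liver) and bars are means. Aqp2 and Aqp6 stand high in kidney only, Aqp8 and Aqp9 in liver only, Aqp5 in lung only, Aqp7 in heart and kidney, and Aqp1 in every organ but liver.

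The other members divided between liver, lung and heart. Aqp8 averaged 2477 ± 277 and Aqp9, the hepatocyte glycerol channel, 1984 ± 197 in liver (SD, n = 17). The highest control values outside the liver were 90.4 for Aqp8 and 81.4 for Aqp9, both in kidney. Over the 36 kidneys these members moved with the hepatocyte gene Cps1 (r 0.843 for Aqp8 and 0.889 for Aqp9), so their kidney readings cannot be told apart from liver RNA. Aqp11 averaged 333 ± 48.5 in liver (SD, n = 17) and 142 ± 33.2 in kidney (SD, n = 18), and the ranges of these organs did not overlap (228 to 415 and 86.7 to 217). Aqp5 averaged 1794 ± 175 in lung (SD, n = 18) and 55.7 ± 16.7 in liver (SD, n = 17). Aqp4, which in lung lies on the basolateral side of airway cells, averaged 770 ± 150 there and 690 ± 452 in kidney (SD, n = 18 each), and the 2 organs overlapped. Aqp7, known for releasing glycerol from adipocytes and present in cardiomyocytes and the proximal tubule, averaged 1133 ± 309 in heart and 964 ± 182 in kidney (SD, n = 18 each), also with overlap. Aqp1, the channel of the proximal tubule, capillary endothelium and red cell, was spread most widely, at 2721 ± 441 in kidney, 1347 ± 209 in heart, 1274 ± 278 in lung (SD, n = 18 each) and 89.7 ± 14.5 in liver (SD, n = 17). Its heart and lung ranges overlapped, the kidney range lay above both, and the liver range lay below all. The organ with the highest level was the same for each of the 10 genes when the array median was subtracted and when medians replaced means.

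The promoter stretches of Aqp1, Aqp3 and Aqp6 are shown because these are the 3 genes called in at least 1 organ at TcMax. They are the 250 bases before the RefSeq start, on build GRCr8, and 9 of the 10 members had an entry. Aqp1 lies at chr4:85812534-85812783 on the plus strand, Aqp3 at chr5:61040684-61040933 on the minus strand and Aqp6 at chr7:132610819-132611068 on the plus strand. All are written 5′ to 3′ along the gene, in lower case, with any motif match in capitals.
Aqp1: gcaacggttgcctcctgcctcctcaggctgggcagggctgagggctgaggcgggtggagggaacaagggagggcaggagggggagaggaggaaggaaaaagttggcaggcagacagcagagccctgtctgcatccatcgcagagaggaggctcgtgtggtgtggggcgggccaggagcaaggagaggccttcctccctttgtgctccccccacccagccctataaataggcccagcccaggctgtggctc
Aqp3: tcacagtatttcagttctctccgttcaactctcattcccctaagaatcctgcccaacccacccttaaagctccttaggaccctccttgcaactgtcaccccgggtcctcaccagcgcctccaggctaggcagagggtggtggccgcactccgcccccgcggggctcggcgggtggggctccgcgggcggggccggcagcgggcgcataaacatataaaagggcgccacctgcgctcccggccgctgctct
Aqp6: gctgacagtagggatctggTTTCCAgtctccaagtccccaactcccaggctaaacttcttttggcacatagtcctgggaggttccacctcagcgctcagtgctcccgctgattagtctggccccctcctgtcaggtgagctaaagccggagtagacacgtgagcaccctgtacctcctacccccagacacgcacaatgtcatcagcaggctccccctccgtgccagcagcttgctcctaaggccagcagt
Heat shock element cores (GAANNTTC and TTCNNGAA), a tonicity element core (TGGAAA) and a glucocorticoid half-site (AGAACA) were searched on both strands. The only match lies in Aqp6, where TTTCCA, the reverse complement of TGGAAA, begins 231 bases before the start. Of 33469 promoters of this length in the table, 19.7% hold TGGAAA, 7.23% GAANNTTC, 7.48% TTCNNGAA and 17.5% AGAACA. In the RefSeq annotation Aqp2, Aqp5 and Aqp6 are neighbours on chromosome 7.

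At TcMax, 3 of the aquaporin differences passed the threshold, all of them lower in heated rats: Aqp3 and Aqp6 in kidney and Aqp1 in liver. In kidney 2 of 10 tested members were called, against 12.2% of all tested IDs in either direction and 5.93% in the lower one. In liver it was 1 of 5, against 30.9% in either direction and 19.4% in the lower one, so the liver share is near the background. In lung it was 0 of 7, against 21.9%, and in heart 0 of 6, against 7.3%. Among these members an unadjusted p under 0.05 was reached by 3 in kidney, 3 in liver and 0 in lung and heart. At 24 h and 48 h no member was called in any organ in limma, and an unadjusted p under 0.05 was reached by 1 in heart at 24 h (Aqp6), 1 in liver at 24 h and 1 in kidney at 48 h (both Aqp11), and by 0 in the other comparisons of these times.

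**Figure D2:**
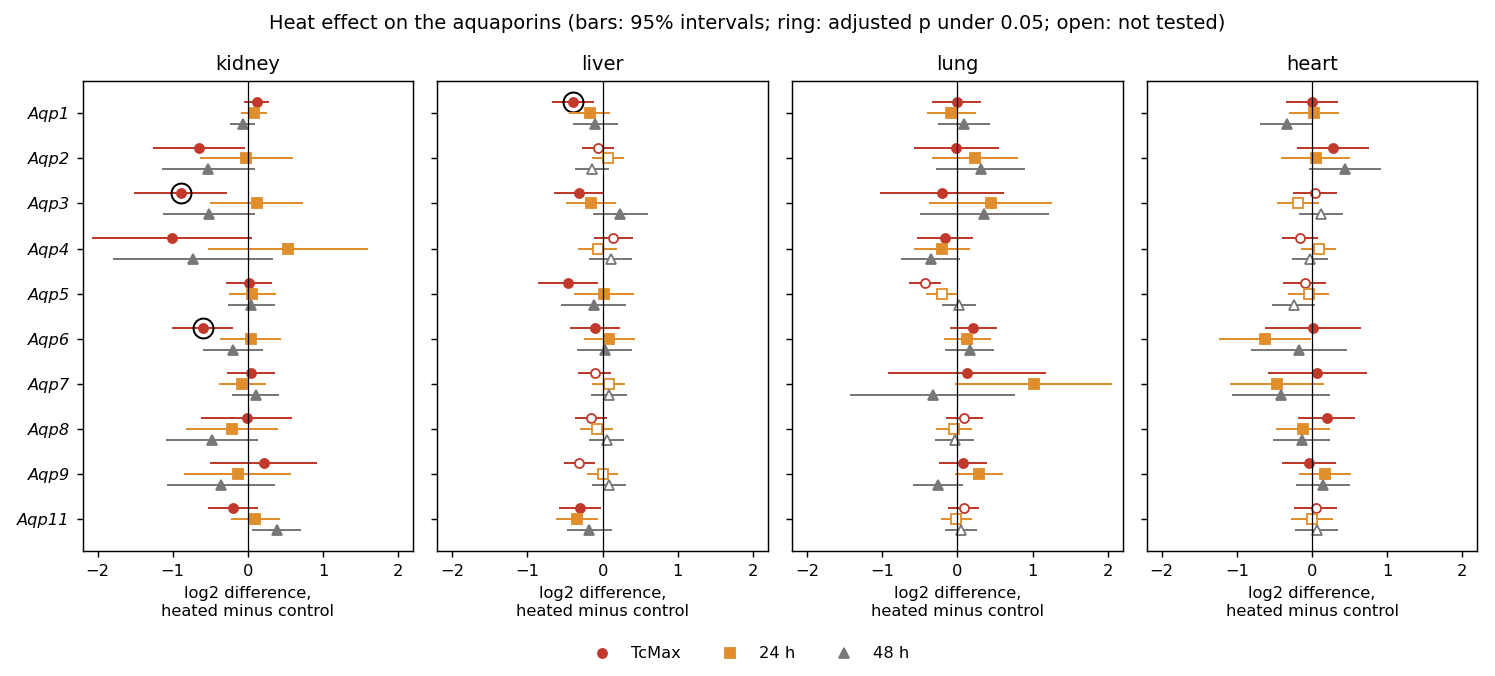
Heated minus control differences of the 10 aquaporins on the log2(intensity + 16) scale, 1 panel per organ, with members down the page. Circles are TcMax, squares 24 h and triangles 48 h, lines are 95% intervals of the fit, a ring marks an adjusted p under 0.05 and open symbols are IDs that were not tested. The 3 ringed symbols are kidney Aqp3 (-0.89), kidney Aqp6 (-0.60) and liver Aqp1 (-0.39).

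In kidney 2 channels of the collecting duct, Aqp3 and Aqp6, were called lower in rats killed at TcMax. The duct channels Aqp2 and Aqp4 were not called, nor were Aqp1, Aqp7 and Aqp11 of the proximal tubule. A difference between the segments was not tested. Aqp3, the basolateral exit channel of principal cells, read 524 to 1394 with a median of 766 in heated kidneys, against 694 to 2938 with a median of 1471 in controls. All 6 heated kidneys lay below the control median, but the 2 groups overlapped. The difference was -0.89 (SE 0.298, 95% interval -1.5 to -0.287), with an adjusted p of 0.0426 in limma. Aqp6, the intercalated cell channel, read 656 to 1333 with a median of 969.7 in heated kidneys, against 1063 to 2068 with a median of 1488 in controls. Here too all 6 heated kidneys were below the control median, with overlap at the edges. The difference was -0.60 (SE 0.195), with an adjusted p of 0.0347 in limma. Alb read 10.3 to 4644 with a median of 2745 in heated kidneys, against 28.5 to 3936 with a median of 1361 in controls, and had an r of 0.0716 with Aqp3 and 0.0849 with Aqp6 over the 36 kidneys. With the log2 level of Alb in the fit, a choice made after seeing the data, the differences were -0.91 for Aqp3 (adjusted p = 0.0365, limma) and -0.61 for Aqp6 (adjusted p = 0.0354, limma). In RNA of a piece of kidney, fewer cells of a type, less RNA per cell and the region that was cut cannot be told apart.

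Both calls were near the threshold and were lost on leaving out any 1 of most arrays. Without any of heated arrays 1, 2, 3 and 4 or control arrays 1, 2, 3, 5 and 6, the adjusted p of Aqp3 (limma) was 0.053 to 0.16, the highest without control array 1, where the difference was -0.70. That of Aqp6 was 0.0502 to 0.13 without any of heated arrays 1 to 5 or control arrays 1, 2, 5 and 6, the highest without heated array 4, where the difference was -0.50. The difference stayed below 0 in all 12 cases for each gene. With an offset of 1 in place of 16, Aqp3 had an adjusted p of 0.101 and Aqp6 did not pass the SD filter.

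Aqp2 and Aqp4 gave differences in the same direction that did not pass. Aqp2 read 689 to 1619 with a median of 858 in heated kidneys, against 777 to 3257 with a median of 1332 in controls. Its difference was -0.65 (SE 0.296, adjusted p = 0.181, limma), and 5 of 6 heated kidneys were below the control median. Aqp4 read 101 to 894 with a median of 326 in heated kidneys, against 185 to 1747 with a median of 677 in controls. Its difference of -1.01 was the largest of the 10 in kidney at TcMax but also had the largest error (SE 0.515, adjusted p = 0.253, limma).

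Aqp1, the main water channel of the proximal tubule, read 3143 to 3671 with a median of 3414 in heated kidneys, against 2676 to 3499 with a median of 3299.9 in controls (0.12, SE 0.0871, adjusted p = 0.518, limma). Aqp7, which takes glycerol back at the brush border, read 912 to 1499 with a median of 996 in heated kidneys, against 748 to 1316 with a median of 1074 in controls (0.04, SE 0.153). The groups overlapped for both genes, and the interval for Aqp1 reached from -0.0393 to 0.27. Aqp11, an intracellular channel of the proximal tubule, read 115 to 173 with a median of 141 in heated kidneys, against 120.2 to 217 with a median of 168 in controls (-0.20, SE 0.159, adjusted p = 0.55, limma). Aqp5, Aqp8 and Aqp9 were dim in kidney, with differences from -0.02 to 0.21.

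**Figure D3:**
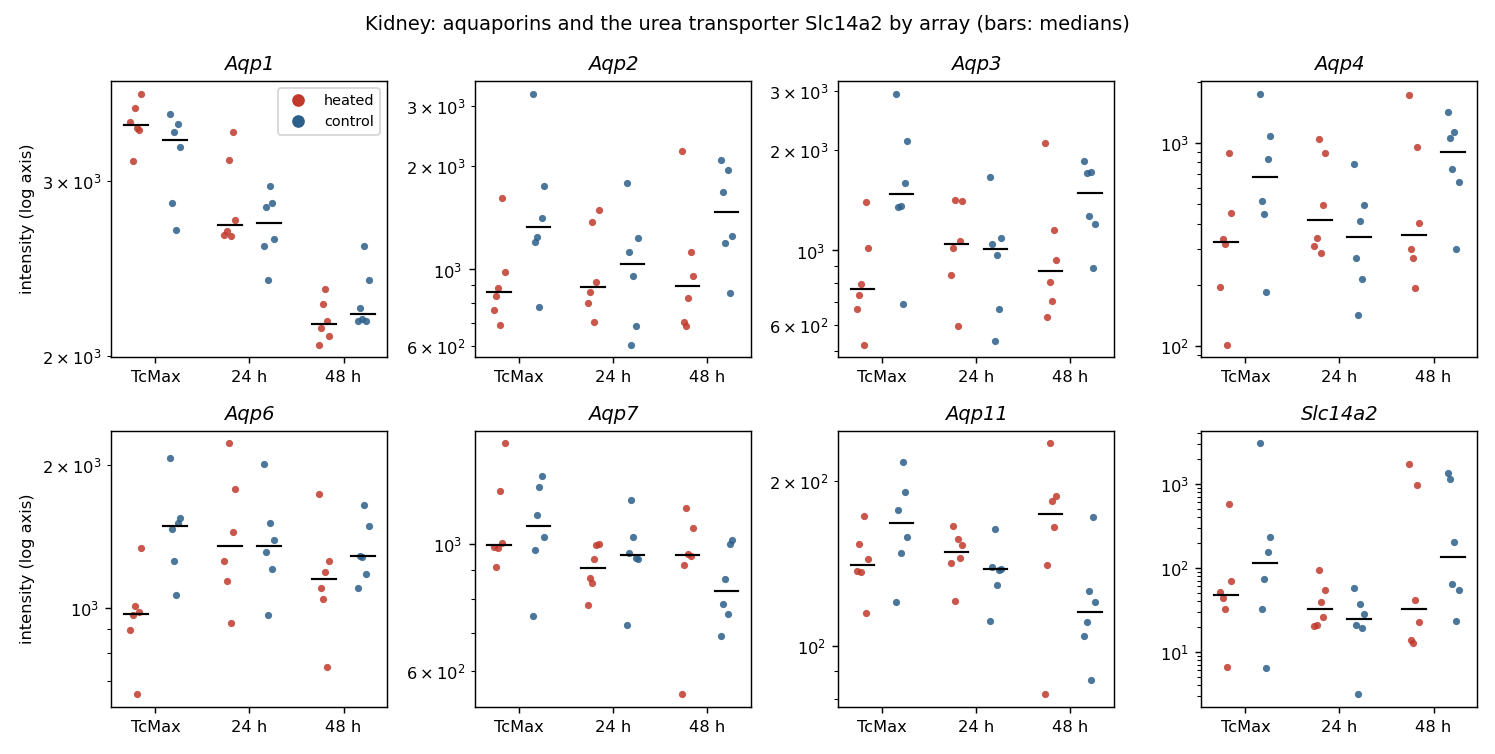
Intensity on each kidney array for Aqp1, Aqp2, Aqp3, Aqp4, Aqp6, Aqp7 and Aqp11 and for Slc14a2, a urea transporter of the inner medulla, on a log axis. Heated rats (red) stand left of controls (blue) at TcMax, 24 h and 48 h, points are arrays (n = 6 per group) and bars are medians. At TcMax every heated point of Aqp3 and Aqp6 lies below the control median, and Aqp4 and Slc14a2 spread most within groups.

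The levels of the duct channels varied widely among kidneys of 1 group, and they did so together. Over the 36 kidney arrays the log2 levels of Aqp2 and Aqp3 had a Pearson r of 0.965 (Spearman rho 0.969), and r was 0.954 without the 2 arrays farthest from the median. Aqp2 and Aqp4 had an r of 0.918, and Aqp3 and Aqp4 one of 0.937. Aqp6 followed less closely, with an r of 0.647 to Aqp2 and 0.699 to Aqp3. With the group means removed these values were 0.964, 0.93, 0.951, 0.683 and 0.71, so the covariation was present within groups. Aqp11 ran the other way, with an r of -0.632 to Aqp2. The points share organ, normalization and piece of tissue, and all pairs of the 10 members were computed.

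**Figure D4:**
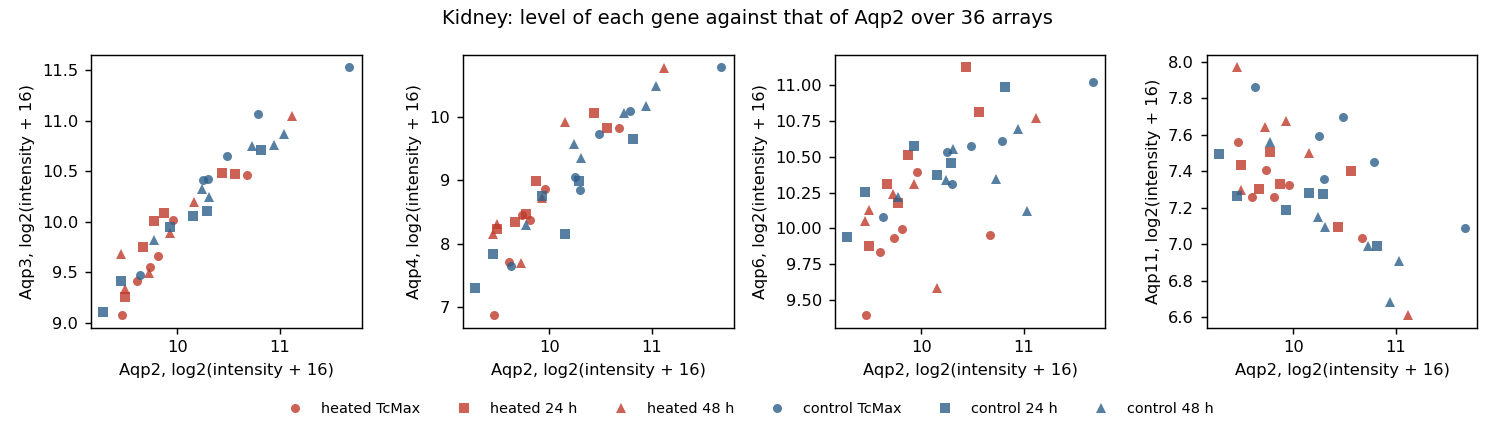
Log2(intensity + 16) of Aqp3, Aqp4, Aqp6 and Aqp11 against that of Aqp2 on the 36 kidney arrays, 1 panel per gene, heated rats in red and controls in blue. Aqp3 and Aqp4 follow Aqp2 closely (Pearson r 0.965 and 0.918), Aqp6 less so (0.647), and Aqp11 declines with it (-0.632).

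The principal cell gene Fxyd4 and the inner medulla gene Slc14a2 moved closely with Aqp2, Aqp3 and Aqp4, and Scnn1g did so less. Scnn1g, a sodium channel gene also listed for the principal cell, had an r of 0.318 with Aqp2, 0.381 with Aqp3, 0.383 with Aqp4 and 0.519 with Aqp6. Fxyd4, a regulator of the sodium pump in the collecting duct, had an r of 0.911 with Aqp2, 0.924 with Aqp3, 0.951 with Aqp4 and 0.678 with Aqp6. It averaged 406.3 in heated kidneys at TcMax and 980.1 in controls, a difference of -1.19 that did not pass (SE 0.443, adjusted p = 0.0762, limma). Slc14a2, a urea transporter gene of the inner medulla, read 6.53 to 570 with a median of 47.5 in heated kidneys at TcMax, against 6.43 to 3038 with a median of 114 in controls. Its r over the 36 arrays was 0.827 with Aqp2, 0.783 with Aqp3, 0.834 with Aqp4 and 0.264 with Aqp6. Control array 1 of TcMax was the highest in Slc14a2 (3038) and in Aqp2 (3257), Aqp3 (2938) and Aqp4 (1747). When the 6 kidneys with Slc14a2 of 500 or more were left out, 1 heated and 1 control at TcMax, Aqp3 differed by -0.86 (adjusted p = 0.0423, limma) and Aqp6 by -0.51 (adjusted p = 0.118, limma). That limit was chosen after the values were seen, and the part of the inner medulla in the differences was not otherwise tested.

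Marker lists of the kidney's cell types were set beside the channels. Over all tested kidney IDs at TcMax, 6.24% were called higher and 5.93% lower. Of 8 measured principal cell genes 7 were tested and 1 was called, Scnn1g, the gamma subunit of the epithelial sodium channel, which averaged 259.6 in heated kidneys and 417.3 in controls (-0.65, adjusted p = 0.000856, limma). The summed level of the 8 was 3895 to 5540 with a median of 4805 in heated kidneys, against 4535 to 8112 with a median of 6027 in controls. On this linear scale the largest terms were Kcnj1, Hsd11b2, Fxyd4 and Tfcp2l1, with control averages of 2169, 1157, 980.1 and 935.2. Kcnj1 is also a gene of the thick ascending limb, so the sum is not one of principal cells alone. Of 7 intercalated cell genes 6 were tested and none was called, in either direction, with sums of 2474 to 3273 in heated kidneys, against 2524 to 3196 in controls. Aqp6 was lower, while the 7 listed intercalated cell genes had a median difference of 0.13, over a range of -0.22 to 0.39. Of 7 proximal tubule genes all were tested and 3 rose. They were Cubn, a scavenger receptor (0.83, adjusted p = 0.000528), its partner Lrp2 (0.47, adjusted p = 0.0385) and Slc5a12, a lactate carrier (3.23, adjusted p = 0.013), all in limma. The summed level of these 7 was 16881 to 22069 in heated kidneys, against 9697 to 17342 in controls. Their part in the differences of the duct channels was not tested.

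The genes whose levels followed Aqp6 most closely over the 36 kidneys were Slc26a7, an anion exchanger (r 0.859), Edn3, the endothelin-3 gene (r 0.851), and P2ry14, a receptor for UDP-sugars (r 0.85). Without the 2 arrays farthest from the median the values were 0.855, 0.797 and 0.832. At TcMax Slc26a7 read 62.2 to 124 with a median of 83.8 in heated kidneys, against 94.0 to 224 with a median of 113 in controls.

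Of 17 genes listed for the vasopressin route to Aqp2, 15 were measured. Avpr2, a vasopressin receptor gene, and Snap23 had no ID with a single gene symbol, so they have no value here. At TcMax 6 were tested in kidney and 2 were called, both lower in heated rats, beside 5.93% of all tested IDs called lower. Ptger3, a prostaglandin E2 receptor that opposes vasopressin in the duct, averaged 450.3 in heated kidneys and 679.3 in controls (-0.59, adjusted p = 0.0347, limma). Vamp2, a vesicle protein of Aqp2 delivery, averaged 175.5 in heated kidneys and 239.8 in controls (-0.42, adjusted p = 0.00665, limma). The fall of Vamp2 was not particular to kidney. It was larger in liver (-1.15, adjusted p = 2.52e-09) and lung (-0.71, adjusted p = 4.45e-07), both in limma. In heart Vamp2 differed by -0.16 and did not pass the SD filter. The median difference of the 15 in kidney, tested or not, was -0.23, beside -0.04 over all kidney IDs and -0.07 over the tested ones.

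Genes listed for the response to hypertonicity moved in both directions. All 8 measured were tested in kidney, 2 rose and 1 fell, beside 6.24% and 5.93% of all tested IDs. The 8 include Umod and Slc12a1, which are genes of the thick ascending limb and were not called. Slc5a3, the myo-inositol transporter gene, averaged 1772 in heated kidneys and 744.4 in controls (1.27, adjusted p = 0.00018, limma). The chaperone gene Hspa4l differed by 0.58 (adjusted p = 0.00919), and the taurine transporter gene Slc6a6 by -0.54 (adjusted p = 0.00774), both in limma. Akr1b1, the aldose reductase gene, averaged 459.1 in heated kidneys and 1303 in controls, a difference of -1.38 that did not pass (SE 0.716, adjusted p = 0.257, limma). Slc5a3 also rose in liver (4.28), lung (2.42) and heart (2.47), with adjusted p values of 7.08e-18, 1.55e-07 and 4.56e-13 in limma. Hspa4l also rose in lung (1.56, adjusted p = 2.67e-07) and liver (1.11, adjusted p = 0.00286), both in limma. Slc6a6 also fell in liver (-1.03, adjusted p = 0.0142) and heart (-1, adjusted p = 0.00034), both in limma. Hspa4l was not called in heart (0.50), and Slc6a6 did not pass the SD filter in lung (-0.37).

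After recovery the duct channels had no called difference in kidney. At 24 h Aqp3 differed by 0.12 (SE 0.298), Aqp6 by 0.04 (SE 0.195) and Aqp4 by 0.54 (SE 0.515). At 48 h the values were -0.52 (SE 0.298) for Aqp3, -0.53 (SE 0.296) for Aqp2, -0.73 (SE 0.515) for Aqp4 and 0.38 (SE 0.159) for Aqp11, all with adjusted p values of 0.871 to 1 in limma. At these times 0.00685% and 0.0411% of all tested IDs were called. The change in effect between TcMax and 24 h was 1.01 for Aqp3 (SE 0.421, adjusted p = 0.184) and 0.64 for Aqp6 (SE 0.272, adjusted p = 0.203), so the effects were not shown to differ between these times in limma, where 6.38% of tested IDs were called.

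Kidney Aqp1 differed between the control groups themselves. It read 2676 to 3499 at TcMax, 2388 to 2967 at 24 h and 2167 to 2579 at 48 h, with medians of 3299.9, 2724 and 2207 (n = 6 each). The groups of TcMax and 48 h did not overlap. The differences from TcMax were -0.23 at 24 h and -0.47 at 48 h (adjusted p = 0.00311 over the 3 groups, limma). Heated kidneys had the same order, with medians of 3414, 2706 and 2152. Over the 3 control times 19.4% of tested kidney IDs were called and 1 of 10 aquaporins was, so this share is below the background. With an offset of 1 and with quantile normalization Aqp1 was not called. The median over all IDs of an array also moved, from 49.1 to 52.8 in TcMax controls to 39.5 to 43.6 in 48 h controls. In heated kidneys it was 44.7 to 51.7 at TcMax and 41.2 to 44.3 at 48 h. The part of this shift in the Aqp1 differences was not otherwise tested. Lung Aqp1 differed by -0.51 between control groups at 48 h and TcMax, without passing (adjusted p = 0.264, limma).

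In liver at TcMax 9 of the 10 differences were below 0, beside a median of -0.11 over all tested IDs and of -0.04 over all IDs. Aqp1, which in liver marks vessels and bile ducts, read 53.8 to 78.2 with a median of 67.5 in heated livers, against 81.7 to 115 with a median of 88.4 in controls. Every heated liver was below every control, as was so for 14.2% of tested IDs with either group higher. The difference was -0.39 (SE 0.136, adjusted p = 0.0249, limma). Without heated array 2, heated array 4 or control array 6 the adjusted p was 0.0544, 0.0675 and 0.067 in limma, with differences of -0.37, -0.35 and -0.34. With an offset of 1 Aqp1 did not pass the SD filter.

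Aqp9 gave an equally clear separation at a high level. It read 1616 to 1954 with a median of 1749 in heated livers, against 2033 to 2454 with a median of 2129 in controls, and the groups did not overlap. The difference was -0.31 (SE 0.0942). Aqp9 varied too little over all livers to pass the SD filter and so had no call, and in a fit of all IDs its adjusted p was 0.0164 in limma, where 12.4% of IDs were called lower. Aqp11 read 218 to 291 with a median of 256 in heated livers, against 228 to 368 with a median of 344 in controls. All 6 heated livers were below the control median, with a difference of -0.30 (SE 0.137, adjusted p = 0.0933, limma).

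Aqp8 read 1447 to 2345 with a median of 2179 in heated livers, against 1812 to 2494 with a median of 2396.5 in controls. Its difference of -0.16 (SE 0.0991) was within the overlap of the groups. Aqp5 was dim and differed by -0.46 (SE 0.19, adjusted p = 0.0653, limma), and Aqp3 by -0.32 (SE 0.163, adjusted p = 0.148, limma). At 24 h Aqp11 read 175 to 357 in heated livers, against 267 to 415 in controls (-0.34, SE 0.137, adjusted p = 0.223, limma), while Aqp9 differed by 0.00 and Aqp1 by -0.17. At 24 h and 48 h, 1.07% and 0.0342% of tested liver IDs were called.

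**Figure D5:**
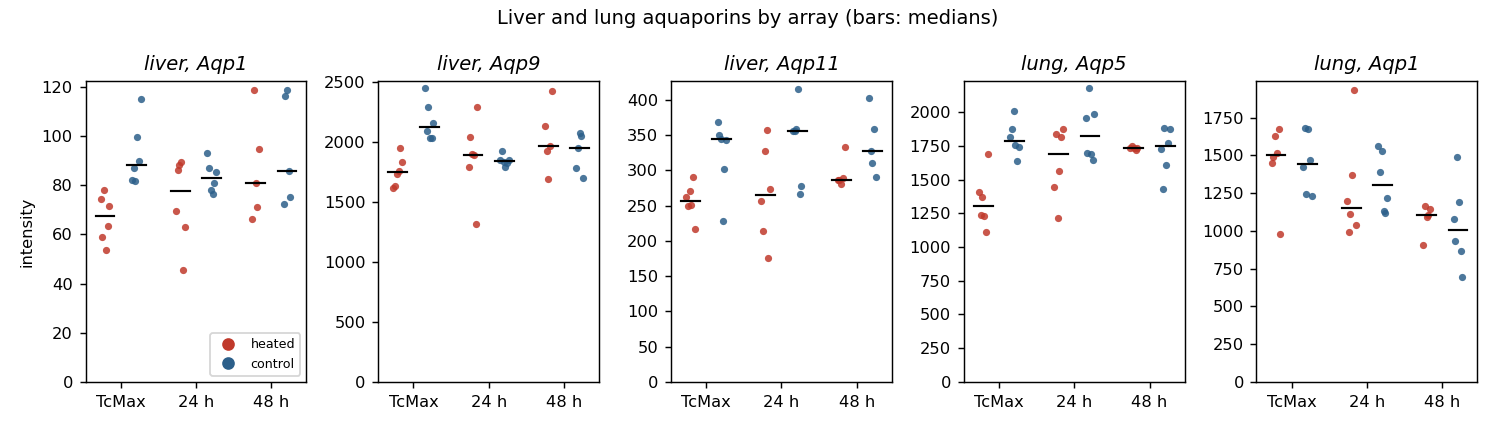
Intensity on each array, on axes that start at 0, for Aqp1, Aqp9 and Aqp11 in liver and for Aqp5 and Aqp1 in lung. Heated rats (red) stand left of controls (blue) at TcMax, 24 h and 48 h, points are arrays (5 or 6 per group) and bars are medians. At TcMax the heated and control livers do not overlap for Aqp1 and Aqp9, and the medians of lung Aqp5 are 1307 and 1789.

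Markers of the cells that hold Aqp1 in liver were set beside it. Of 6 measured cholangiocyte genes 4 were tested and none was called, with sums of 162 to 287 in heated livers, against 218 to 253 in controls. Of 6 endothelial genes 3 were tested and 2 rose, the cadherin gene Cdh5 (0.36, adjusted p = 0.0234) and the secreted factor gene Egfl7 (0.44, adjusted p = 0.00481), both in limma. Of the others Tie1 differed by -0.35 and did not pass the SD filter (adjusted p = 0.027 in the fit of all IDs, limma), Tek by -0.15, Vwf by -0.08 and Emcn by -0.01, and the median of the 6 was -0.04. Of 7 erythrocyte genes all were tested and 1 fell. Among glycerol genes 8 were measured, 5 were tested and 1 rose, Pck1, a gluconeogenic enzyme gene (0.67, adjusted p = 0.00928, limma). Gk, the kinase that traps the glycerol brought in by Aqp9, averaged 2797 in heated livers and 3408 in controls and, like Aqp9, did not pass the SD filter (-0.29, SE 0.0943).

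The genes closest to Aqp1 over the 34 livers were Arnt, a partner of hypoxia-inducible factors (r 0.746), Amacr, a peroxisomal racemase gene (r 0.723), and Girdinl2 (r 0.723). Without the 2 arrays farthest from the median these were 0.628, 0.579 and 0.596.

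In lung Aqp5 was the member that stood apart at TcMax. It read 1109 to 1688 with a median of 1307 in heated lungs, against 1639 to 2006 with a median of 1789 in controls. The highest heated lung exceeded the lowest control, and all 6 heated lungs were below the control median. The difference was -0.43 (SE 0.0992, 95% interval -0.636 to -0.233). Aqp5 did not pass the SD filter and so had no call, and in a fit of all IDs its adjusted p was 0.0015 in limma, where 9.06% of IDs were called lower.

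At 24 h lung Aqp5 read 1216 to 1874 with a median of 1690.4 in heated lungs, against 1648 to 2178 with a median of 1826 in controls (-0.20, SE 0.0992). At 48 h the 5 heated lungs read 1717, 1737, 1738.5, 1738.6 and 1751, against 1428 to 1885 with a median of 1750.1 in controls (0.02, SE 0.104). The heated values at 48 h thus lay inside the control range and within a narrow band. In the fit of all IDs the effect at 24 h was not shown to differ from that at TcMax (0.23, SE 0.14, adjusted p = 0.45, limma), and the effect at 48 h exceeded that at TcMax by 0.46 (SE 0.144, adjusted p = 0.0426, limma).

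Other alveolar genes were set beside Aqp5. Of 6 alveolar type I genes 2 were tested and 1 fell, Akap5, an anchoring protein gene of protein kinase A (-0.40, adjusted p = 0.0172, limma). The summed level of the 6 was 11493 to 16540.1 in heated lungs, against 11917 to 16039 in controls. Hopx, a type I marker, averaged 2410.0 in heated lungs and 2445 in controls. None of 6 measured alveolar type II genes passed the SD filter, and their median difference was -0.10. Of 6 endothelial genes all were tested and 2 fell, Tie1 (-0.74, adjusted p = 0.000194) and Emcn (-0.46, adjusted p = 0.0283), both in limma. Over all tested lung IDs at TcMax, 9.97% were called higher and 12% lower.

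Of the other lung channels none was called. Aqp1 read 980 to 1677 in heated lungs and 1233 to 1683 in controls at TcMax (-0.01, SE 0.158), and Aqp4 read 548 to 799 in heated lungs and 539 to 842 in controls (-0.16, SE 0.18). At 24 h Aqp9, dim in lung, read 24.1 to 31.6 in heated lungs and 7.23 to 23.7 in controls, without overlap (0.29, SE 0.154, adjusted p = 1, limma). Groups without overlap made up 0.219% of tested IDs there, and 0% of tested IDs were called at 24 h and likewise 0% at 48 h. Lung Aqp7 at 24 h differed by 1.02 (SE 0.503), and by 0.15 without the array that carried adipocyte genes. The genes closest to Aqp6, the tested member with the smallest adjusted p in lung at TcMax, were Sh3bgrl4 (r 0.658), Slc7a12 (0.638) and Slco1a6 (0.637) over 35 arrays.

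In heart no member was called at any time. Aqp1, a channel of cardiac capillaries, read 1259, 1285, 1369, 1449 and 1765 in heated hearts at TcMax, against 1033 to 1747 with a median of 1442 in controls (0.00, SE 0.174). Aqp7, the glycerol channel of cardiomyocytes, read 304, 1078, 1102, 1223 and 1401 in heated hearts, against 428 to 1196 with a median of 976 in controls (0.07, SE 0.313). Both groups overlapped for both genes, and 1 heated heart lay far below the other 4 for Aqp7.

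At 24 h Aqp6, which is dim in heart, read 11.9 to 23.7 with a median of 18.9 in heated hearts, against 31.7 to 48.0 with a median of 35.4 in controls. The groups did not overlap, as was so for 1.78% of tested IDs. The difference of -0.63 (SE 0.29) had an adjusted p of 0.981 in limma with all groups in the fit and of 0.0302 with the 24 h groups alone, where the spread of the other groups does not enter. Alb had a median of 186 in these heated hearts and of 667 in their controls and an r of 0.472 with Aqp6 over the 34 hearts, and with Alb in the fit of all groups the difference was -0.43 (adjusted p = 1, limma). Aqp7 read 749 to 1433 in heated hearts at 24 h, against 1078 to 1553 in controls (-0.47, SE 0.298, adjusted p = 0.999, limma). At 24 h 0.089% of tested IDs were called.

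At 48 h the 5 heated hearts read 709, 930.0, 1135, 1349 and 1481 for Aqp1, against 1260 to 1642 with a median of 1334 in controls. The 3 lowest heated hearts were below every control, and the difference was -0.34 (SE 0.174, adjusted p = 0.248, limma). The lowest, array 3, also had the lowest Myh6 of the 34 hearts, the gene of the alpha heavy chain of cardiac myosin (646), and 862 of Adipoq. Aqp7 read 322 on the same array and differed by -0.41 over the group (SE 0.313, adjusted p = 0.505, limma). At this time 5.63% of tested heart IDs were called. The study describes persistent heart injury in some of the heated rats killed at this time, but not in all. The heated hearts were pooled here. Whether the hearts low in Aqp1 or Aqp7 came from injured rats was not tested.

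Heart Aqp2 was near the floor, and the genes closest to it over the 34 hearts were genes of the thick ascending limb and other kidney tubules. They were Slc12a1, Kcnj1 and Cldn10, each with an r of 0.856, and 0.594, 0.588 and 0.598 without the 2 arrays farthest from the median. Among heart endothelial genes 6 were measured, 5 were tested and 3 fell at TcMax (Tie1, Egfl7 and Tek, with differences from -0.74 to -0.50). Over all tested heart IDs at TcMax, 3.36% were called lower. The sum of the 6 endothelial genes was 3690.2 to 4925 in heated hearts, against 4234 to 6578 in controls, while Aqp1 differed by 0.00.

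The heat effects at TcMax were also compared between organs of the same rats. Aqp1 had a lower effect in liver than in kidney, by -0.51 (SE 0.153, adjusted p = 0.0379, limma, 6 heated and 6 control rats), where 6.43% of tested IDs were called. This comparison was not called with an offset of 1 or with quantile normalization. The effect on Aqp3 in heart exceeded that in kidney by 1.09 (SE 0.338, adjusted p = 0.116), and that on Aqp6 in kidney differed by -0.82 from that in lung (SE 0.287, adjusted p = 0.129). Neither passed in limma, where 1.35% and 3.02% of tested IDs were called. Aqp3 in heart (2.33 to 22.9, 34 arrays) and Aqp6 in lung (7.55 to 32.7, 35 arrays) were dim, and the offset compresses such differences. No other member passed in any organ pair, beside 5.85% of tested IDs for heart minus liver, 2.16% for heart minus lung and 8.67% for liver minus lung.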

How the data were processed

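Total RNA of pieces cut from heart, liver, kidney and lung was hybridised to Affymetrix Rat Gene ST arrays. The authors made the deposited intensity values with iterPLIER in Affymetrix Expression Console 1.1. They did this organ by organ and left the scale linear, so levels are not tested between organs. Here log2(intensity + 16) was taken, as the study's methods add this offset before the logarithm. Groups came from the sample labels. In each organ the 50% of IDs with the larger SD over its arrays were tested in limma 3.58.1 (R 4.3.3), with 6 group means and moderated variances, and p values were adjusted over these IDs. A member under the SD filter has a difference and SE from a fit of all IDs and no call. Of the IDs, 18644 carry 1 gene symbol and 962 carry several, which were not named, and 124 of 145 list genes had an ID. Genes named from lists are up to 4 with the smallest adjusted p among those called, with others named for their role. The genes named as closest are the 3 with the highest Pearson r to the tested member with the smallest adjusted p at TcMax. The members and lists were chosen with earlier results of these data known. Same-numbered arrays of heated and control groups came from different rats. Alternatives were a test of all IDs or of IDs above the median level, an offset of 1, quantile normalization, a fit of 2 groups, replicate number or tag prefix as a block, a 2-fold minimum, leaving out each array and, added after seeing the data, Alb as a covariate and leaving out arrays with transcripts of another tissue or region. Plots used matplotlib 3.10.9 under Python 3.11.15.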

Additional observations from a re-analysis of the deposited data

Results flagged for a closer look

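Among 240 groups of 4 or more arrays (10 genes in 4 organs, heated and control at 3 times), 22 held an array far from the others of its group. Chance sets apart about 1 in 20 such groups. In heated hearts at 48 h array 2 read 88.7 for Aqp2 and 22.9 for Aqp3, against at most 16.8 and 8.15 in the others. Heart array 5 of the 48 h controls read 5.51 for Aqp6, against 32.5 to 46.3, and heated heart 5 at TcMax read 304 for Aqp7, against 1078 to 1401. In liver, heated array 3 at 24 h read 6.62 for Aqp4, against at most 12.4, and heated array 5 at 48 h read 333 for Aqp11, against 281 to 290.0.

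In kidney, heated array 1 at 48 h stood apart in 3 members. It read 546 for Aqp7, against 919 to 1154, 82.8 for Aqp8, against 9.21 to 17.9, and 45.6 for Aqp9, against at most 8.49. The same array read 4188 for Alb and 550.0 for Cps1, genes of hepatocytes, against at most 1007 and 46.3 in the other 5. Kidney control array 2 at 48 h read 11.7 for Aqp5, against 25.7 to 33.5.

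Most of the others were lungs. Heated lung 6 at TcMax read 980 for Aqp1, against 1448 to 1677, and 35.5 for Aqp2, against 12.9 to 17.2. Heated lung 4 at 24 h read 115 for Aqp2, against at most 24.2, together with 395 for the tubule gene Umod. Heated lung 3 at 24 h read 784 for Aqp7, against at most 17.5. At 48 h heated lung 1 read 904 for Aqp1, against 1090 to 1165, and heated lung 2 read 26.0 for Aqp6, against 13.1 to 14.9. Control lung 2 at 48 h read 362 for Aqp3, against 35.3 to 60.7, 1143 for Aqp4, against 617 to 777, and 42.4 for Aqp7, against at most 6.10. Control lung 3 at 48 h read 46.1 for Aqp8, against 26.9 to 33.2. For Aqp9, control lung 6 at 24 h read 7.23, against 17.5 to 23.7, and control lung 5 at 48 h read 48.0, against 17.3 to 26.2.

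The heat effect on Aqp1 at TcMax differed between organs of the same rats, being lower in liver than in kidney by -0.51 (adjusted p = 0.0379, limma).

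The heart array that was left out carried 4 members above the range of the 34 other hearts. It read 34529 for Aqp5, 2919 for Aqp1, 160 for Aqp4 and 120 for Aqp3, against at most 26.5, 1765, 11.9 and 22.9 in the others.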

How the results depend on the processing

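The counts of called aquaporins at TcMax moved with the processing and no direction reversed. In kidney 2 were called, but 1 with all IDs tested, with quantile normalization, with only the 2 groups compared in the fit or with only kidneys under 500 for Slc14a2 (a limit chosen after seeing the data), and 0 with an offset of 1 or a 2-fold minimum. In liver 1 was called, but 2 with all IDs tested, with only IDs above the median level tested or with the tag prefix as a block, and 0 with an offset of 1, quantile normalization or a 2-fold minimum. In lung 0 were called, but 1 with all IDs tested, with IDs above the median level or with quantile normalization. Leaving out 1 array gave 0 to 2 calls in kidney at TcMax, 0 to 3 in liver at TcMax and 0 in the other comparisons. In heart at 24 h the fit of 2 groups gave 1 call in place of 0. Over the control times in kidney 0 were called in place of 1 with an offset of 1 or quantile normalization, as was so for liver minus kidney at TcMax. For lung at 48 h minus TcMax, 1 was called in place of 0 with all IDs tested or quantile normalization. Part of these moves follows from which IDs are tested, since lung Aqp5 and liver Aqp9 enter only when the SD filter is dropped or changed. The cause of the others was not tested.

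Same-numbered heated and control arrays did not pair: of 68 pairs 28 had deviations correlated above 0.1, over a range of -0.56 to 0.609. With Alb as a covariate, chosen after seeing the data, the counts stayed at 2 in kidney, 0 in lung and 0 in heart at TcMax. With the replicate block the counts were unchanged at 2 in kidney, 1 in liver, 0 in lung and 0 in heart at TcMax.

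The number of arrays, 5 or 6 a group, limits these differences, and for the dim members the offset compresses them.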
